A study of Caenorhabditis elegans with 12 samples.

Results

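The genes described here encode 10 proteins of meiotic recombination in Caenorhabditis elegans: spo-11, dsb-1, dsb-2, him-5, him-17, rad-50, rad-51, msh-5, cosa-1 and zhp-3. They were taken as a fixed list of WormBase symbols, and all 10 were found by their gene IDs among the 24619 genes that the deposited tables list. Poly-A RNA came from whole young adults in 4 groups of 3 libraries. Wild-type animals were strain N2, and animals lacking adr-2, written adr-2(-), were strain BB20 with the allele adr-2(ok735); adr-2 encodes the enzyme that converts adenosine to inosine in double-stranded RNA. Each strain was hatched and grown on bacteria with either an empty RNAi vector (control RNAi) or a vector against sqd-1 (sqd-1 RNAi). Thus wild-type and adr-2(-) animals on control RNAi share the empty vector, and both sqd-1 RNAi groups share the knockdown of sqd-1, an RNA-binding protein gene. The series text gives 60 hours of growth and the growth protocol 72 hours. The labels do not say whether replicates were separate cultures, so p-values measure the spread between these libraries, which may be technical.

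In C. elegans meiosis, the topoisomerase-like enzyme SPO-11 cuts both strands of DNA, and accessory proteins such as DSB-1, DSB-2, HIM-5 and HIM-17 allow these breaks to form. The broken ends are processed with the help of the MRE-11 and RAD-50 complex, and RAD-51 coats them and pairs them with the homologous chromosome. MSH-5, COSA-1 and ZHP-3 then act at the few intermediates that become crossovers, which hold homologous chromosomes together until they separate. These steps take place in germline cells in meiotic prophase, and the genes are known for germline expression.

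Each library held 29042770 to 33984832 recovered reads, of which 28.97 to 57.8% came from ribosomal RNA genes. Levels are given as normalised reads, the read count of a gene divided by 1 size factor per library over all 12 libraries. Changes between groups are differences of log2(value + 1), which understate those of low genes, and were fitted in the deposited table of the 2 groups compared. Both targeted genes followed the labels. For sqd-1 the wild-type control libraries held 11948, 15266 and 13789 normalised reads and the knockdown libraries 1302, 1342 and 1337. In adr-2(-) these were 11472, 29363 and 18585 against 1863, 1106 and 1240.5, so no knockdown library reached a control library. The adr-2(-) libraries held 0 to 4.05 normalised reads of adr-2. Wild-type libraries held 802, 975 and 781 on control RNAi and 328, 470 and 343 on sqd-1 RNAi. Thus adr-2 itself was lower on sqd-1 RNAi in wild-type (log2 -1.21 ± 0.18 SE, limma adjusted p 8.82e-05). Replicate 2 of adr-2(-) stood apart on both RNAi conditions: there, rad-50 and spo-11 were far below the other replicates. Results in adr-2(-) are therefore also given without replicate 2. Replicates 1 and 3 of adr-2(-) differed as well. The mean log2 level of the 10 genes was 9.50 and 10.17 in them on control RNAi, and 8.77 and 9.53 on sqd-1 RNAi. The summed germ cell markers (11 genes such as glh-1, pgl-1 and gld-1) summed to 49121 to 62434 normalised reads in the wild-type control libraries, and muscle, intestine, neuron and hypodermis markers were found as well.

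The 10 genes lie on chromosomes I to V of the WBcel235 build and none lies on the X chromosome, where 13.7% of the 14262 annotated genes tested over 12 libraries lie. All are annotated as protein coding. Chromosome IV holds spo-11 at IV:11123133-11124862 (- strand), dsb-1 at IV:12408925-12410470 (+ strand), rad-51 at IV:10281634-10284244 (- strand) and msh-5 at IV:13155233-13164054 (+ strand). On chromosome V are him-5 at V:14090426-14092454 (+ strand), him-17 at V:13176711-13180185 (+ strand) and rad-50 at V:12245646-12251246 (+ strand). The others are dsb-2 at II:14411095-14412218 (+ strand), cosa-1 at III:2726116-2731670 (+ strand) and zhp-3 at I:8529376-8531342 (- strand). Exons of other protein-coding genes overlap 23 bases of spo-11 exons, 4 of dsb-1, 17 of dsb-2 and 178 of cosa-1, which is 14.02% of its exon length. The counting of strand is not given in the sources used here, so reads in these stretches cannot be assigned with certainty. In cosa-1 the overlapping exon belongs to Y71H2AM.12 on the opposite strand, which had 79.4 normalised reads in wild-type on control RNAi.

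Per kilobase of exon, him-17, a chromatin-associated protein gene needed for break formation, had the highest level in wild-type on control RNAi, at 803 ± 129 normalised reads per kb (SD, n = 3). Next came dsb-1 at 595 ± 69.0, rad-51 at 529 ± 30.6, zhp-3 at 486 ± 33.0, rad-50 at 480.2 ± 168 and spo-11 at 460 ± 28.0 per kb. Below these stood dsb-2 at 366 ± 63.6, cosa-1 at 302 ± 16.1 and msh-5 at 264 ± 21.8, with him-5 lowest at 171 ± 4.47 per kb. The ranges of neighbours in this order overlapped from dsb-1 down to spo-11, and each of the other neighbouring pairs stood apart, some narrowly. On sqd-1 RNAi in wild-type the order changed at the top: rad-51 stood at 383 ± 82.7 and him-17 at 373 ± 83.7 per kb, with overlapping ranges, and him-5 stayed lowest at 73.8 ± 10.1.

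In wild-type animals the whole set was lower on sqd-1 RNAi. All 10 genes fell by limma at an adjusted p under 0.05, with a median log2 fold change of -1.20 and a range of -1.50 to -0.53. Over the 14489 genes tested 61.1% were called, 33.8% of all as lower, and the median was 0.041. A call by itself is thus common here, so the count of 10 is read beside that share. With the replicate block 9 fell (36.1% of all genes), with edgeR 8 (28.8%) and with DESeq2 10 (27.1%). In 9 of the 10 every sqd-1 RNAi library lay below every control library, as in 35.6% of all genes. In the authors' deposited table all 10 were lower at an adjusted p under 0.05, where 27.1% of its genes were. That table and the DESeq2 fit held the same values for the 10 genes (spo-11 log2 -1.31, DESeq2 adjusted p 2.06e-10 in both). They are thus not separate sources, here or in the comparisons below. The samples are whole animals, so fewer germ cells and less RNA per cell cannot be told apart.

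**Figure D1:**
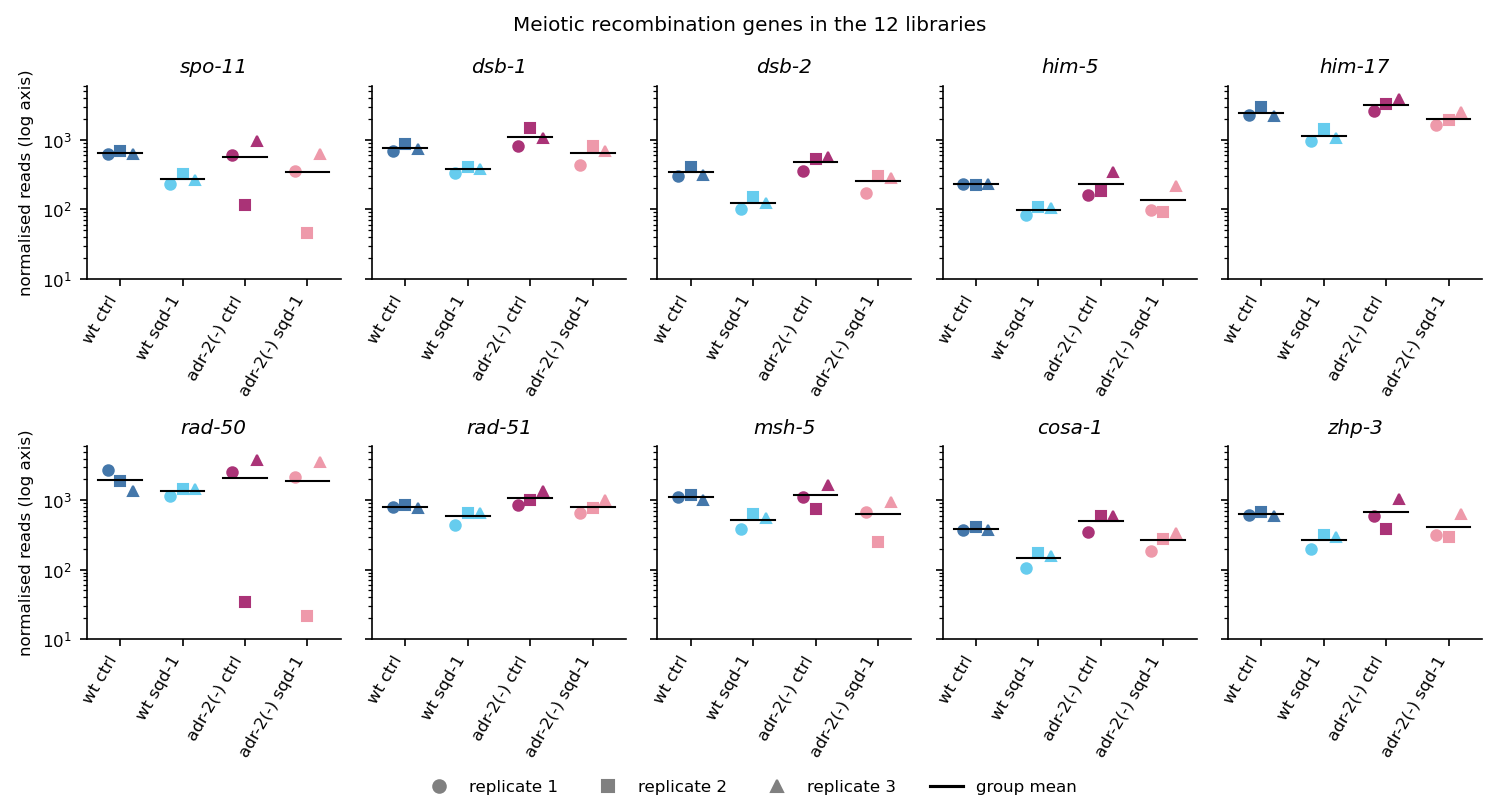
Normalised reads (log axis) of each gene in the 12 libraries, by group (wt, wild-type; ctrl, control RNAi), with the replicate as the symbol and the group mean as a bar. In wild-type 9 of the 10 genes have all sqd-1 RNAi libraries below all control libraries, rad-50 being the exception; in adr-2(-) replicate 2, rad-50 lies at 34.3 and 21.3.

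Among the genes for making breaks, spo-11 itself had 635, 704 and 635 normalised reads in the wild-type control libraries and 230.1, 326 and 263 on sqd-1 RNAi. The groups did not overlap, and the sqd-1 RNAi mean was 41.5% of the control mean (log2 fold change -1.32 ± 0.18 SE, limma adjusted p 3.18e-05). The paralogs dsb-1 and dsb-2, which encode proteins that load on chromosomes while breaks may still form, both fell. The level of dsb-1 was 705, 873 and 736 on control RNAi and 332, 414 and 382 after knockdown, a mean at 48.8% of control (log2 -1.07 ± 0.17 SE, limma adjusted p 0.000112). That of dsb-2 was 302, 411 and 315 on control RNAi and 100.2, 151 and 122 after knockdown, at 36.3% (log2 -1.50 ± 0.21 SE, limma adjusted p 4.03e-05), the largest fall of the 10. Neither gene's groups overlapped. The ratio of dsb-1 to dsb-2, per length, was 1.53 to 1.69 on control and 1.99 to 2.40 on sqd-1 RNAi. Tested on this ratio, two-sided exact permutation gave p = 0.1, as low as 3 against 3 libraries can go, and 0.4 after adjustment over 8 such tests of 4 ratios in 2 genotypes. In adr-2(-) the ratio was 1.36 to 2.02 and 1.77 to 1.97, which overlap.

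The gene him-5, whose product is needed above all for breaks on the X chromosome, had 232, 222 and 233 normalised reads on control RNAi and 83.3, 107 and 106 on sqd-1 RNAi. The 3 control libraries were close together and all above the sqd-1 RNAi libraries (log2 -1.25 ± 0.18 SE, limma adjusted p 6.63e-05). For him-17 the values were 2325, 2939 and 2191 and 952, 1445 and 1061, again without overlap (log2 -1.16 ± 0.19 SE, limma adjusted p 0.000154). Replicate 2 was the highest of its group for him-17 on both RNAi conditions. For rad-50, which encodes the ATPase of the end-processing complex, control libraries ranged widely, at 2721, 1873 and 1351, against 1153, 1472 and 1441 on sqd-1 RNAi. The groups overlapped, since control replicate 3 lay below 2 of the sqd-1 RNAi libraries. The fitted log2 change was -0.54 ± 0.22 SE with a 95% interval of -1.0 to -0.070, and limma gave an adjusted p of 0.0454. The call was lost without control replicate 1 (log2 -0.30, limma adjusted p 0.222), without control replicate 2 (0.0949) and without sqd-1 RNAi replicate 1 (0.152). Blocking on replicate number gave a limma adjusted p of 0.0596, and edgeR on whole reads gave 0.126.

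Strand exchange and crossover genes fell by different amounts. The recombinase gene rad-51 had 796, 862 and 771 normalised reads on control RNAi and 440.3, 666 and 652 after knockdown, a mean at 72.4% of control. The groups did not overlap, but the log2 fold change of -0.53 ± 0.18 (SE, limma adjusted p 0.0238) was the smallest of the 10 in size, with a 95% interval of -0.92 to -0.13. Its adjusted p was 0.101 with edgeR, 0.0997 in limma without sqd-1 RNAi replicate 1 and 0.0827 without control replicate 2. The MutS homolog gene msh-5 went from 1114, 1203 and 1019 to 384, 640.4 and 554 (log2 -1.15 ± 0.19 SE, limma adjusted p 0.000198). The gene cosa-1, whose cyclin-like product marks designated crossover sites, went from 373, 407 and 372 to 104, 176 and 156, 37.8% of the control mean (log2 -1.47 ± 0.21 SE, limma adjusted p 4.79e-05). The RING finger gene zhp-3 went from 618, 675 and 591 to 196, 317 and 299 (log2 -1.28 ± 0.20 SE, limma adjusted p 9.52e-05). For these 3 crossover genes no sqd-1 RNAi library reached the control libraries, and sqd-1 RNAi replicate 1 was the lowest in each.

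Scaling moved these values. Over all genes the median log2 change was 0.041 as reported, 0.17 with TMM and 0.20 with upper-quartile scaling, where the median of the 10 genes was -1.07 and -1.05. With either scaling 8 of the 10 stayed called, and rad-50 and rad-51 did not. The share of all genes called lower in limma under these scalings was not counted, so the 8 cannot be weighed against it. Of all genes, limma called 27.3% higher and 33.8% lower, and edgeR, which uses TMM, 36% and 28.8%.

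**Figure D2:**
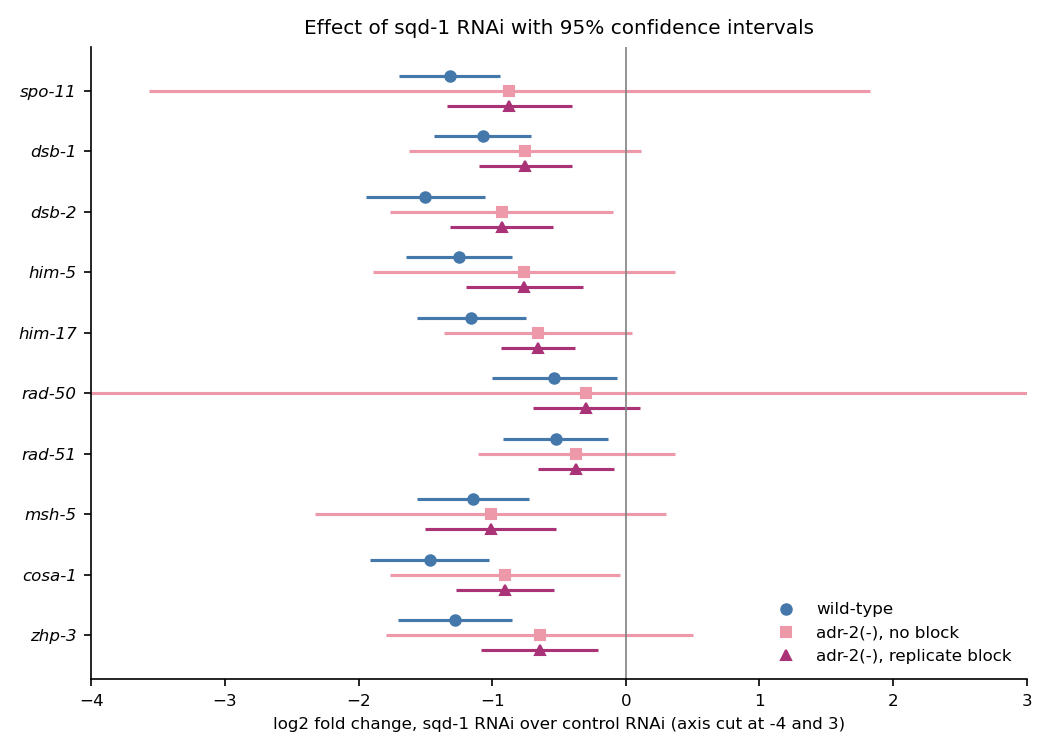
Log2 fold change of each gene on sqd-1 RNAi (points) with 95% confidence intervals from limma, in wild-type and in adr-2(-) without and with the replicate number as a block. In wild-type all intervals lie below 0; in adr-2(-) the interval of rad-50 without a block runs past both ends of the axis.

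The wider recombination pathway moved the same way in wild-type. Of 44 further genes listed for break formation, strand exchange, crossover designation, joint molecule processing and the damage checkpoint, 43 passed the filter on low values (a mean of at least 10). Of these, 41 fell and 0 rose, with a median log2 fold change of -1.07, beside 33.8% of all genes lower. The 4 largest falls were prom-1, an F-box gene of meiotic entry and pairing (log2 -1.67 ± 0.19 SE, limma adjusted p 9.65e-06), and xnd-1, which shapes where crossovers form (log2 -1.65 ± 0.19 SE, limma adjusted p 1.10e-05). They were followed by exo-1, an exonuclease gene (log2 -1.54 ± 0.19), and rpa-1, the gene of a single-strand DNA binding subunit (log2 -1.50 ± 0.19). Levels of xnd-1 went from 2455 ± 425 to 805 ± 169 normalised reads and those of rpa-1 from 3778 ± 478 to 1388 ± 347 (SD, n = 3). The 2 genes that did not pass were rfs-1, a RAD-51 paralog gene (log2 -0.47 ± 0.28, limma adjusted p 0.166), and rip-1 of the same complex (log2 -0.20 ± 0.46, limma adjusted p 0.718), which had 10.5 ± 5.32 normalised reads on control RNAi.

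By step, all 10 other break formation genes fell (median log2 -1.19), as did all 5 other crossover designation genes (-1.05). So did all 9 tested genes of joint molecule processing (-0.93) and all 7 checkpoint genes (-1.16). Of the strand exchange genes 10 of 12 fell (-1.04). Partners of the 10 genes were looked up as well, outside the rule for named genes. The gene mre-11, which works with rad-50, had -1.21 ± 0.19 beside the -0.54 of rad-50, a difference that was not tested. The gene dsb-3, which works with dsb-1 and dsb-2, had -1.37 ± 0.21, and him-14, the partner of msh-5, had -1.05 ± 0.18 (log2 ± SE). Among the paralogs of zhp-3 the values were -0.77 ± 0.20 for zhp-1, -1.43 ± 0.22 for zhp-2 and -1.18 ± 0.19 for zhp-4.

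Other germline lists moved as well. The 18 synaptonemal complex and axis genes had a median of -0.96 with 16 called lower. The germ cell markers had -1.32 (8 of the 10 tested lower), and their summed level was 49121 to 62434 normalised reads per library on control and 19362 to 26044 on sqd-1 RNAi. Oocyte markers had a median of -2.81 (9 of 11 lower; summed 85819 to 116495 against 14874 to 30948). Sperm markers had 2.10 (13 of 13 higher; summed 2849.9 to 3817 against 10037 to 12871), and muscle markers 0.34 (4 of 8 higher). The median of the 10 recombination genes, -1.20, lay near that of the germ cell markers, and the part of cell composition in it was not tested.

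**Figure D3:**
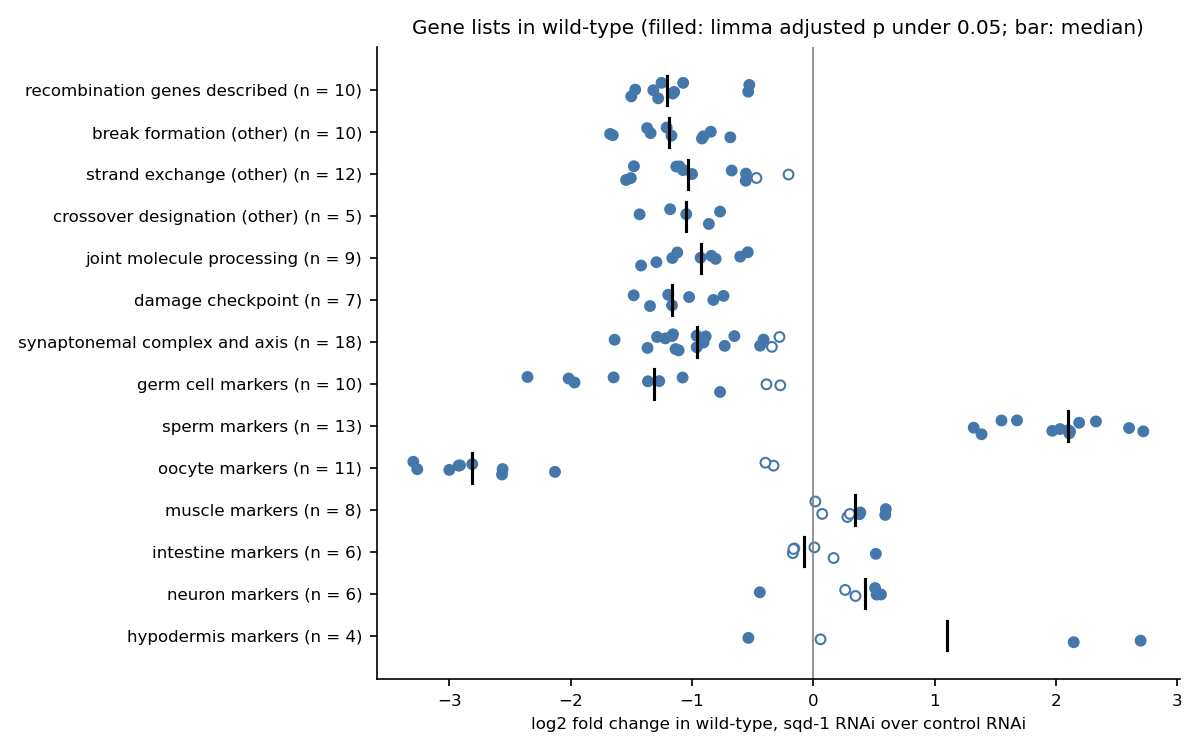
Log2 fold change in wild-type on sqd-1 RNAi for each tested gene of each list (1 point per gene, filled where limma's adjusted p is under 0.05, with the median as a bar). The recombination lists have medians of -0.93 to -1.20, between oocyte markers at -2.81 and muscle markers at 0.34.

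Genes next to the 10 were examined too, chosen after their values were seen. Directly downstream of rad-51 on the same strand, 51 bases away, thk-1 fell by more than rad-51, with a log2 fold change of -1.65 ± 0.17 (limma adjusted p 6.18e-06). Downstream of rad-50, 94 bases away, T04H1.5 had -1.26 ± 0.18 (limma adjusted p 5.23e-05), a larger fall than that of rad-50. Other close same-strand neighbours were mixed, each with a limma adjusted p under 0.05. Larger falls than the recombination gene were seen for gex-3 by dsb-1 (-1.30 ± 0.17) and D1086.3 by him-5 (-1.59 ± 0.26). Smaller falls were seen for cni-1 by him-17 (-0.60 ± 0.17) and K02B12.7 by zhp-3 (-0.48 ± 0.15). Rises were seen for F26H11.4 by dsb-2 (0.96 ± 0.19) and the weakly expressed gpa-15 by zhp-3 (0.99 ± 0.35). Overlapping neighbours did not follow the recombination genes: acl-13, which overlaps dsb-1 on the same strand, rose (1.48 ± 0.20, limma adjusted p 3.66e-05), and exl-1, opposite dsb-2, rose (0.41 ± 0.15, limma adjusted p 0.0343). The gene enpl-1, opposite spo-11, had -0.018 ± 0.16 and did not pass the test.

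In adr-2(-) animals, 1 replicate stood far from the others for several of these genes. The level of rad-50 was 2577, 34.3 and 3761 normalised reads in adr-2(-) control replicates 1 to 3 and 2191, 21.3 and 3541 on sqd-1 RNAi. Behind these values were 2669, 19 and 4753 reads on control and 2279, 21 and 4596 on sqd-1 RNAi. Replicate 2 was 88.1-fold below the mean of the other 2 on the log scale with control RNAi and 125-fold below on sqd-1 RNAi. Measured this way, rad-50 was the lowest of all 14266 genes on sqd-1 RNAi, and on control RNAi 2 genes, itself included, were as low. The gene spo-11 was also low there, at 611, 116 and 964 on control and 361, 45.5 and 620.2 on sqd-1 RNAi, 6.59-fold and 10.2-fold under the other replicates. On the log2 scale msh-5 lay at -0.85 and -1.70 and zhp-3 at -1.05 and -0.59. In contrast dsb-1 lay at 0.66 and 0.57, dsb-2 at 0.22 and 0.44 and rad-51 at -0.081 and -0.070. The same replicate number in wild-type showed no such gap, with rad-50 at -0.034 and 0.19 and spo-11 at 0.15 and 0.40.

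**Figure D4:**
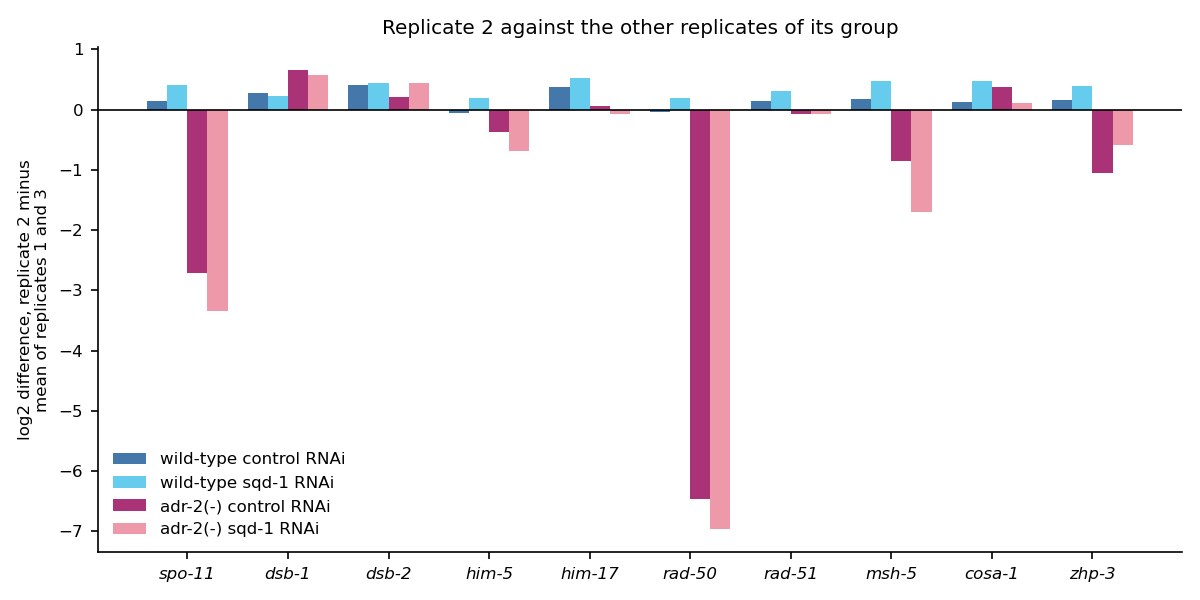
Log2 difference of replicate 2 from the mean of replicates 1 and 3 in each of the 4 groups (bars). The bars of rad-50 reach -6.46 and -6.97 in adr-2(-) and those of spo-11 -2.72 and -3.35, while the wild-type bars of all 10 genes lie between -0.066 and 0.52.

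Other genes were low in this replicate as well. In both adr-2(-) groups 226 of 14266 genes (1.58%) lay at -3 or below on this log2 scale, and 58 at -4 or below, while in both wild-type groups 0 genes did. Among the other recombination genes, him-18, which encodes a scaffold for resolving joint molecules, lay at -4.47 and -4.02. The checkpoint kinase gene atl-1 lay at -3.80 and -4.65, and polq-1, a polymerase gene of end joining, at -3.17 and -4.54 (all 3 named after their values were seen). Genes with exons of similar total length to rad-50 had medians of -0.17 and -0.62, and those of similar length to spo-11 0.11 and 0.053. Beside rad-50, slfl-5 had 2830.2, 4841 and 4055 normalised reads on control RNAi, highest in replicate 2, while T04H1.5 lay at -0.83 and -0.075 on the log2 scale and the weakly expressed ugt-55 at -2.66 and -1.79. Around spo-11, skih-2 was low as well, at -1.81 and -1.96, and swsn-4 lay at -0.31 and -1.43. In the same stretch enpl-1 lay at 0.10 and 0.18. No cause of these low values was tested.

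On sqd-1 RNAi, each of the 10 genes had a negative log2 fold change in adr-2(-) too (rad-50 was above 0 with edgeR), with a median of -0.76 and a range of -1.01 to -0.30, beside -0.026 over the 14068 genes tested. Without a block 0 of the 10 passed in limma, where 0.0284% of all genes did. The knocked-down gene sqd-1 itself did not pass in this fit (log2 -3.72 ± 0.40 SE, limma adjusted p 0.0627). A count of 0 therefore says little about the 10 genes. The unadjusted limma p was under 0.05 for 2 of the 10 (21.2% of all genes). No member of the 10 passed by edgeR, where 0.0213% of all genes were called in either direction and 0% lower. None passed by DESeq2 or in the authors' deposited table, where 8.67% of all genes were called in either direction and 0.56% lower. With the replicate number as a block, 9 of the 10 fell in limma, where 28.5% of all genes were called lower; same-numbered adr-2(-) libraries deviated together from their group means. The exception was rad-50 (log2 -0.30 ± 0.16, blocked limma adjusted p 0.179). Leaving replicate 2 out of both adr-2(-) groups, a choice made after seeing the data, gave 0 of 10 without the block, where 0 of all genes passed. With the block it gave 7 of 10, where 26% of all genes were called lower, him-5 and rad-51 joining rad-50 among those that did not pass.

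For every gene of the list, the adr-2(-) library on sqd-1 RNAi was below the control library of the same number in each pair. The share of all genes with this pattern was not counted. In the blocked limma fit 28.5% of all genes were called lower. For dsb-1 the adr-2(-) libraries held 814, 1471 and 1069.7 normalised reads on control and 435, 817 and 698 on sqd-1 RNAi. These groups overlap, but within each number the sqd-1 RNAi library was the lower, and the log2 fold change was -0.75 ± 0.14 (SE, blocked limma adjusted p 0.0107). For dsb-2 the values were 362, 528 and 570.5 and 170.2, 299.6 and 286, without overlap, and the change was -0.93 ± 0.15 (SE, blocked limma adjusted p 0.00874). The values of him-17 were 2595, 3286 and 3856 and 1631, 1910 and 2499, also without overlap, with -0.66 ± 0.11 (SE, blocked limma adjusted p 0.00894). The remaining break gene him-5 had 161, 181 and 343 on control and 97.1, 90.1 and 217 on sqd-1 RNAi, with replicate 3 the highest on both, and -0.76 ± 0.18 (SE, blocked limma adjusted p 0.0189). For spo-11, whose replicate 2 was low on both conditions, the blocked change was -0.87 ± 0.19 (SE, blocked limma adjusted p 0.0155), and without replicate 2 in both groups it was -0.68 (blocked limma adjusted p 0.0318).

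Further along the pathway, rad-51 had 841, 1016 and 1373 normalised reads on control and 655, 771 and 1002 on sqd-1 RNAi in adr-2(-), with -0.37 ± 0.11 (SE, blocked limma adjusted p 0.0447). The gene msh-5 had 1127, 754 and 1648 and 671, 247 and 958, low in replicate 2 of both, with -1.01 ± 0.20 (SE, blocked limma adjusted p 0.0118). The levels of cosa-1 were 351, 591 and 590.3 and 187, 272 and 339.8, without overlap, and its change was -0.90 ± 0.15 (SE, blocked limma adjusted p 0.00869). Those of zhp-3 were 596, 381 and 1048 and 311, 295 and 631, with -0.64 ± 0.18 (SE, blocked limma adjusted p 0.0308). In all, the groups did not overlap for 3 of the 10 genes, dsb-2, him-17 and cosa-1, beside 16.2% of all genes with every sqd-1 RNAi library lower. Of the 43 other recombination genes, 0 passed without and 35 with the block, all lower, and their median was -0.83. In the same comparison the germ cell markers had a median of -0.95, oocyte markers -1.24 and sperm markers 2.44. Summed germ cell markers were 54567 to 80273 normalised reads per library on control and 28148 to 44277 on sqd-1 RNAi, and the part of cell composition was not tested.

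Loss of adr-2 by itself moved no gene of the list past the threshold. On control RNAi 0 of 10 passed in limma, beside 0.00737% of all genes, and the unadjusted p was under 0.05 for 0 of them (7.43% of all genes). Counts were also 0 by edgeR (0.00737% of all genes), DESeq2 (0.00446%) and the authors' deposited table (0.00446%). The groups overlapped for all 10 genes, where 13.7% of all genes did not overlap. The log2 difference, adr-2(-) minus wild-type, was 0.44 ± 0.23 for dsb-1, 0.43 ± 0.23 for dsb-2, 0.31 ± 0.20 for him-17, 0.32 ± 0.21 for rad-51 and 0.31 ± 0.23 for cosa-1 (SE). It was -0.15 ± 0.30 for him-5, -0.052 ± 0.29 for msh-5 and -0.081 ± 0.35 for zhp-3. Without adr-2(-) replicate 2 these went to -0.0041, 0.25 and 0.29, the sign turning for msh-5 and zhp-3. For rad-50 it was -1.51 ± 1.63 (the authors' deposited table gives 0.050 ± 1.37), and without adr-2(-) replicate 2 it turned to 0.67 (limma adjusted p 0.434). That of spo-11 likewise turned from -0.75 ± 0.71 to 0.18. The 95% interval was -0.16 to 0.79 for him-17 and -0.17 to 0.81 for rad-51. In this comparison the oocyte markers had a median of 0.57, the germ cell markers 0.26 and the sperm markers -1.22, with 0 called in limma. The part of cell composition was not tested.

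On sqd-1 RNAi, 8 of the 10 genes had a higher level in adr-2(-) than in wild-type (7 with TMM, where msh-5 was at -0.0021, and 10 with edgeR and DESeq2), with a median log2 difference of 0.49 beside -0.071 over all genes. None of the 10 passed in limma or edgeR (0% of all genes each), nor in DESeq2 (1.91% of all genes) or the authors' deposited table (1.91%). With 0% of all genes called, limma did not call adr-2 itself, whose log2 difference in the authors' deposited table was -8.29. In limma the unadjusted p was under 0.05 for 4 of the 10 (12.1% of all genes). For dsb-1, dsb-2, him-17 and cosa-1 all 3 adr-2(-) libraries lay above all 3 wild-type libraries, a pattern that 15.1% of all genes showed. Their log2 differences were 0.73 ± 0.29, 0.97 ± 0.31, 0.79 ± 0.26 and 0.85 ± 0.32 (SE), with limma adjusted p of 0.407, 0.388, 0.388 and 0.401. The 2 with a negative value were spo-11 (-0.32 ± 0.89) and rad-50 (-1.29 ± 1.79). Without adr-2(-) replicate 2 they were 0.78 and 1.02, and none of the 10 passed in limma, where 1 of all genes did. On the same condition the oocyte markers had a median of 1.96 and the germ cell markers 0.41, and the part of either in these differences was not tested.

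Animals with both changes were also set against wild-type on control RNAi. These are the same wild-type control libraries as in the comparisons above, so the results are not independent. All 10 genes had a negative value, though rad-51 was above 0 with TMM, upper-quartile scaling and edgeR, and rad-50 with edgeR. The median log2 fold change was -0.64 (all genes -0.091), and 0 passed in limma, where 0.0422% of all genes did. The unadjusted limma p was under 0.05 for 1 of the 10 (15.9% of all genes). None passed in edgeR, where 1.37% of all genes were called in either direction and 0.0634% lower. None passed in DESeq2 or the authors' deposited table either, where 5.39% were called in either direction and 0.468% lower. The double-treated libraries all lay below the wild-type control libraries for 5 genes, spo-11, dsb-2, him-5, msh-5 and cosa-1, beside 13.6% of all genes. The log2 fold change was -1.04 ± 0.47 for msh-5, -0.89 ± 0.37 for him-5, -1.78 ± 1.77 for rad-50 and, nearest to 0, -0.028 ± 0.24 for rad-51 (SE). Without adr-2(-) replicate 2, rad-50 turned to 0.53, and spo-11 was -0.49 and msh-5 -0.49. None of the 10 passed then, where 1847 of all genes did. The mean level of rad-51 was 809 ± 46.9 (SD, n = 3) and 809 ± 177 (SD, n = 3), and that of dsb-1 771 ± 89.4 (SD, n = 3) and 650.1 ± 195 (SD, n = 3).

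Whether sqd-1 RNAi acted differently in the 2 genotypes was tested directly over all 12 libraries. The interaction, the change in adr-2(-) minus the change in wild-type, was above 0 for all 10 genes with a median of 0.40. Over all 14266 genes 7948 were above 0, with a median of 0.045. None of the 10 passed in limma, edgeR or DESeq2, where 0% of all genes did. The unadjusted limma p was under 0.05 for 0 of the 10 and for 1.44% of all genes. Blocking on the pairs of same-numbered libraries within a genotype, again 0 of the 10 and 0% of all genes passed, and the unadjusted limma p was under 0.05 for 3 of the 10 and 9.95% of all genes. Without adr-2(-) replicate 2 in both groups 0 of the 10 passed with or without the block, where 0 of all genes did in either fit. There rad-50 was at 0.34 and spo-11 at 0.58. The smallest blocked adjusted p in limma was that of him-17, with a difference of 0.43 ± 0.13 (SE, adjusted p 0.296) and a 95% interval of 0.12 to 0.74. For rad-51 the difference was 0.084 ± 0.18 and for msh-5 0.063 ± 0.28 with the block.

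**Figure D5:**
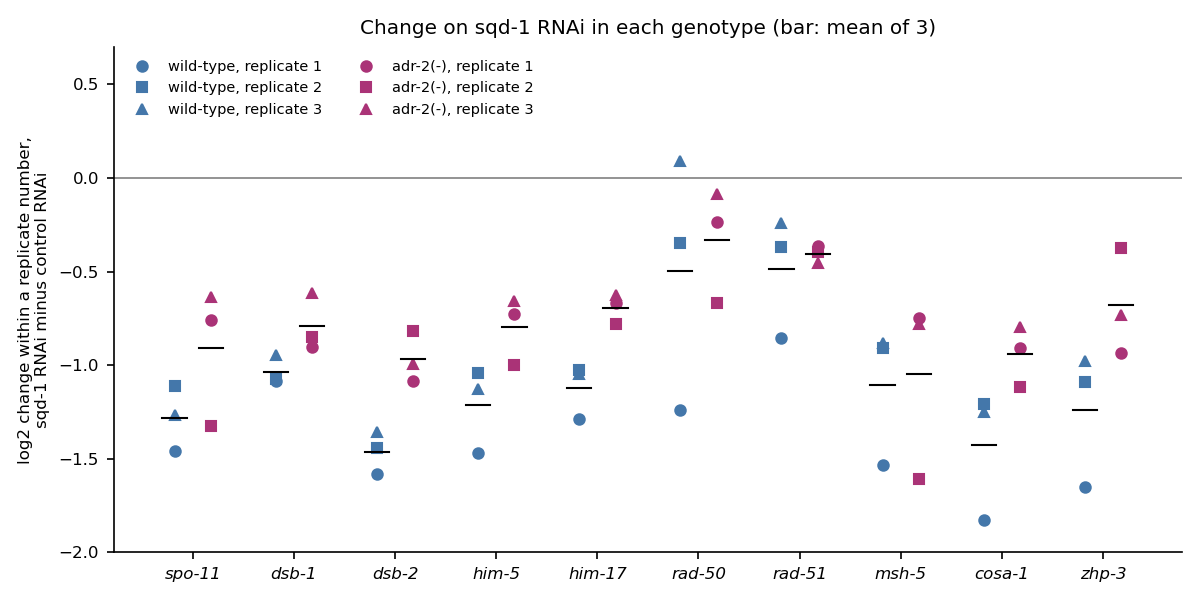
Log2 change between the sqd-1 RNAi and control RNAi libraries of the same replicate number, for each gene and genotype (symbols, replicates; bars, means of 3). For 6 of the 10 genes the 3 adr-2(-) values all lie above the 3 wild-type values, as for 12.5% of all genes, and for spo-11, rad-50, rad-51 and msh-5 they overlap.

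Within replicate numbers, the log2 changes of dsb-2 were -1.58, -1.44 and -1.36 for the wild-type pairs, against -1.09, -0.81 and -0.99 for the adr-2(-) pairs. For him-17 the changes were -1.29, -1.02 and -1.05 against -0.67, -0.78 and -0.63, and for cosa-1 -1.83, -1.20 and -1.25 against -0.91, -1.12 and -0.79. These 3 genes, dsb-1, him-5 and zhp-3 did not overlap between genotypes, with all adr-2(-) changes above the wild-type ones, as they were for 12.5% of all genes. For each of the 6, two-sided exact permutation of the pair changes returned p = 0.1, which is as low as 3 against 3 can go, and 0.167 after adjustment over the 10 genes. The wild-type pairs of rad-51 had -0.85, -0.37 and -0.24 and its adr-2(-) pairs -0.36, -0.40 and -0.45, which overlap. For msh-5 they were -1.53, -0.91 and -0.88 against -0.75, -1.61 and -0.78, which overlap too. For rad-50 the wild-type changes were -1.24, -0.35 and 0.093, with replicate 3 not lower, and those in adr-2(-) -0.23, -0.67 and -0.087. The 2 adr-2(-) libraries of replicate 2 had 19 and 21 reads of rad-50, so this gene's change in that pair rests on few reads.

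Profiles over the 12 libraries were compared after centring each gene on its own mean log2 level. The mean profile of the 10 genes holds the low values of rad-50 and spo-11 in adr-2(-) replicate 2, so likeness to it was also computed over the 10 libraries without that replicate, an alternative added after seeing the data. Of the 10 genes over all 12 libraries, msh-5 was closest to the mean profile, with a root-mean-square difference of 0.180. The farthest were spo-11 (0.725) and rad-50 (2.04), beside a median of 0.823 over all genes. Each of the 10 is part of the mean it is compared with, so the medians over all genes are not a like measure. Over 10 libraries spo-11 was at 0.0911, next to msh-5 at 0.0874, and rad-51 (0.258) and rad-50 (0.392) were the farthest, beside a median of 0.716. The 5 named genes outside the lists nearest to the mean profile over 12 libraries were cyn-9 (0.0667), F09G2.8 (0.0667), sec-5 (0.0685), tag-65 (0.0700) and thoc-5 (0.0999). Over 10 libraries they were hmg-3 (0.0479), smu-1 (0.0530), thoc-5 (0.0556), F09G2.8 (0.0560), popl-1 (0.0645), of which 2 are shared.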

How the data were processed

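Poly-A RNA of 12 libraries was sequenced. The authors deposited 5 pairwise tables of 6 libraries; per the file headers they hold normalised signal, log2 fold changes, a score (the test statistic) and p-values. The submitters' processing notes name STAR 2.7.10b and DESeq2; which program counted reads, whether strand was used, the build and the version of DESeq2 are not given in the sources used here. In the deposited signal each count was scaled by a single factor per library and table. Undoing that gave whole reads for 100% of 690228 values (within 0.1 read), and 1 read was worth 0.710 to 1.72 units. Levels here use median-of-ratios factors over all 12 libraries.

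Tests used limma 3.58.1 (R 4.3.3, eBayes with a trend) on log2(value + 1) within each table, over genes averaging 10 or more, with Benjamini-Hochberg adjustment over all of them; the interaction used all 12 libraries. The fit was tested on simulated data with independent libraries and the same spread setting for every gene. These data held neither replicate pairing nor a deviant library, so the test does not cover the spread seen in adr-2(-). Alternatives included edgeR 4.0.16 and DESeq2 1.42.0 on whole reads, TMM and upper-quartile scaling, other pseudocounts (0.1 and 10) and filters (none, 50), all 12 libraries in one fit, leaving out each library and a replicate block. Depth covers counting error only. The replicate numbers come from the titles. Deviations of same-numbered libraries correlated at 0.245 to 0.271 across genes in wild-type and 0.637 to 0.822 in adr-2(-), so the numbers were taken to pair libraries within a genotype, though not between genotypes (-0.523 to 0.209). In the comparisons between genotypes the replicate block still matched equal numbers, so it is no check of those results.

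The genes and lists were chosen with earlier results of these data known. The rule named the 10 genes everywhere, and of the other recombination genes the 4 largest falls and rises among those called. Positions come from the Ensembl annotation of WBcel235. Of 131 listed genes, 130 were in the tables and 1 (rmh-1) was not analysed here.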

Additional observations from a re-analysis of the deposited data

How the results depend on the processing

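In wild-type, 6 to 10 of the 10 genes were called lower under 11 alternatives. The lowest, 6, came from fitting all 12 libraries together. There, calls over all genes in either direction went from 8849 of 14489 to 4964 of 14266. Leaving out single libraries gave 8 to 10, for which the share of all genes is not given here. In adr-2(-) the count rose from 0 (4 calls over all genes) to 9 with the replicate block (6411 calls, 28.5% of all genes lower). It was 7 with the block and without replicate 2 (5605 calls, 26% of all genes lower). With all 12 libraries together it was 2, beside 3176 of 14266 genes called in either direction. The share called lower is not given for that fit, so the 2 cannot be weighed against it. Leaving out single libraries there gave 0 to 0. The block changed 1 call in wild-type, that of rad-50 (9 of 10 called), and none in the other 4 comparisons. Those 4 gave 0 under every setting run, leave-one-out included (0 to 0). Between genotypes the block matched libraries by numbers that were not taken as pairs, so it is no check there. On sqd-1 RNAi in adr-2(-) the sign turned for rad-50 (0.027 with edgeR). For adr-2 loss it turned on control RNAi for rad-50 (0.035 with edgeR, 0.050 with DESeq2), msh-5 (0.0057 with edgeR, 0.021 with DESeq2, 0.012 with all 12 libraries), zhp-3 (0.025 with edgeR, 0.041 with DESeq2) and on sqd-1 RNAi for spo-11 (0.26 with edgeR, 0.31 with DESeq2), rad-50 (0.43 with edgeR, 0.48 with DESeq2), msh-5 (-0.0021 with TMM). For both changes together it turned for rad-50 (0.055 with edgeR), rad-51 (0.00091 with TMM, 0.029 with upper-quartile, 0.089 with edgeR). None of these values was past the threshold in either setting, and the cause was not tested. Where leaving out 1 library turned a sign, the log2 ranges were, on sqd-1 RNAi in adr-2(-), spo-11 -1.79 to 0.23, rad-50 -2.46 to 2.02. For adr-2 loss on control RNAi they were spo-11 -1.35 to 0.18, him-5 -0.47 to 0.021, rad-50 -2.70 to 0.67, msh-5 -0.31 to 0.25, zhp-3 -0.44 to 0.29, and on sqd-1 RNAi spo-11 -1.08 to 0.78, him-5 -0.084 to 0.54, rad-50 -2.63 to 1.02, msh-5 -0.35 to 0.62. For both changes they were rad-50 -3.12 to 0.53, rad-51 -0.20 to 0.13, and for the interaction spo-11 -0.53 to 1.49, rad-50 -1.99 to 2.49, rad-51 -0.11 to 0.27, msh-5 -0.35 to 0.63. Of the single-gene values under other settings, 642 kept direction and side of the threshold, 13 lost a call and 18 gained one.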

Other observations

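The genes of the structures in which recombination takes place were not uniform in wild-type on sqd-1 RNAi (genes named here were chosen after their values were seen). The pairing-centre zinc-finger genes him-8 (log2 -1.64 ± 0.18 SE, limma adjusted p 8.02e-06) and zim-3 (-1.37 ± 0.16, limma adjusted p 1.26e-05) had the largest falls of the 18 synaptonemal complex and axis genes tested. The meiotic cohesin gene rec-8 had -1.22 ± 0.17 and the axis gene htp-3 -1.11 ± 0.19. At the other end, the axis gene him-3 had -0.41 ± 0.17 (limma adjusted p 0.0466), and lab-1 (-0.34 ± 0.16, limma adjusted p 0.0871) and syp-1, a central-region gene (-0.28 ± 0.18, limma adjusted p 0.189), did not pass. The level of syp-1 was 860.4 ± 96.5 normalised reads (SD, n = 3) in the control group and 735 ± 137 after knockdown, and that of syp-3, of the same central region, 488 ± 42.6 and 229.6 ± 38.5. In adr-2(-) the list had a median of -0.75, with 0 called by limma without and 14 with the block.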
